A study of Mus musculus with 4 samples.

Results

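The 12S ribosomal RNA is the RNA of the small subunit of the mitochondrial ribosome, and its gene in the mouse, mt-Rnr1, starts at position 70 of mitochondrial DNA (MT, assembly GRCm38.p6) and runs for 955 nucleotides on the plus strand. Its cytosines were taken as every plus-strand position between these ends in the authors' table, which gave 188 of the 5988 listed positions. The table comes from bisulfite sequencing of mitochondrial RNA, in which cytosine is converted to uracil while 5-methylcytosine (m5C) stays a cytosine, so that the methylation level of a position is the share of its reads that keep a cytosine. The samples were 2 libraries from NSUN2-/- mouse liver and 2 from wild-type liver, all from RNA enriched for mitochondria, depleted of ribosomal RNA and treated with DNase. The labels give no strain, age or sex and do not describe the NSUN2 allele, and they do not tell whether 1 animal or several gave the libraries of a genotype, so p-values measure only the spread between these libraries, which may be technical. The table lists mtDNA positions only, so neither the loss of Nsun2 nor markers of liver could be checked in it.

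Mitochondrial 12S rRNA is cut out of a long heavy-strand transcript in which the phenylalanine and valine tRNAs lie on either side of it. Few of its nucleotides are modified. NSUN4, a methyltransferase of the same family as NSUN2 that acts inside mitochondria, is known to form m5C at the mouse cytosine named C911 after its mtDNA position, which is nucleotide 842 of the rRNA, near its 3′ end, in the region that lines the decoding site of the small subunit. In human mitochondria another enzyme, METTL15, places N4-methylcytosine shortly before the NSUN4 cytosine, and this modification partly resists bisulfite. NSUN2 is known for m5C in transfer RNAs, and the comparison of genotypes asked here whether any cytosine of the 12S rRNA changes when NSUN2 is missing.

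These small RNA libraries, made after ribosomal depletion, held many 12S reads, but nearly all of them from one short stretch. Which step of the preparation set this pattern was not tested, since every library went through both. The rRNA took 39.9% and 93.8% of the strand-assigned cytosine calls of NSUN2-/- replicates 1 and 2, against 50.1% and 45.9% in wild type replicates 1 and 2. The calls of all positions came to 99431 and 453470 in the NSUN2-/- libraries, and to 89915 and 45449 in the wild-type libraries. NSUN2-/- replicate 2 stands apart from the other libraries, which lay between 39.9% and 50.1%, and the genotypes overlapped. A share of calls after ribosomal depletion does not give the amount of the rRNA in the tissue, and what set this share was not tested. The mean shares were 66.8% ± 38.1 in NSUN2-/- and 48.0% ± 3.03 in wild type (SD, n = 2 each; two-sided exact permutation p = 1, where 2 against 2 libraries cannot go below 0.333). Without NSUN2-/- replicate 2 the difference of 18.8 points turned to -8.11 points. No read was called on the 154 cytosines of the opposite strand between the same ends in any library.

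Along the molecule the calls piled up between nucleotides 601 and 700. This window, with 20 of the cytosines, held 98.9% and 99.9% of the 12S calls of the NSUN2-/- libraries and 99.4% and 99.7% of those of the wild-type libraries. Within it, 7 cytosines at positions 724, 733, 737, 745, 753, 763 and 764 (nucleotides 655 to 695) were the only members with at least 10 reads in every library. They took 97.3% and 99.9% of the 12S calls in NSUN2-/- replicates 1 and 2, and 98.6% and 98.8% in wild type replicates 1 and 2. All other cytosines of the rRNA together had 1066 and 478 calls in the NSUN2-/- libraries, and 619 and 250 in the wild-type libraries.

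The rest of the rRNA was thinly covered or not seen. At least 1 read fell on 123 and 54 cytosines in NSUN2-/- replicates 1 and 2, and on 78 and 60 in wild type replicates 1 and 2. The median cytosine had 1 and 0 reads in the NSUN2-/- libraries and 0 in each wild-type library. The first cytosine with a read, position 123, had 1 read in NSUN2-/- replicate 2 and none in the other libraries. The last, position 1014, had 6 and 5 reads in the NSUN2-/- libraries and 2 in each wild-type library. No library had a read at 47 cytosines, and 27 of these form an unbroken run at positions 501 to 613. Reads were present in all 4 libraries at 34.

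**Figure D1:**
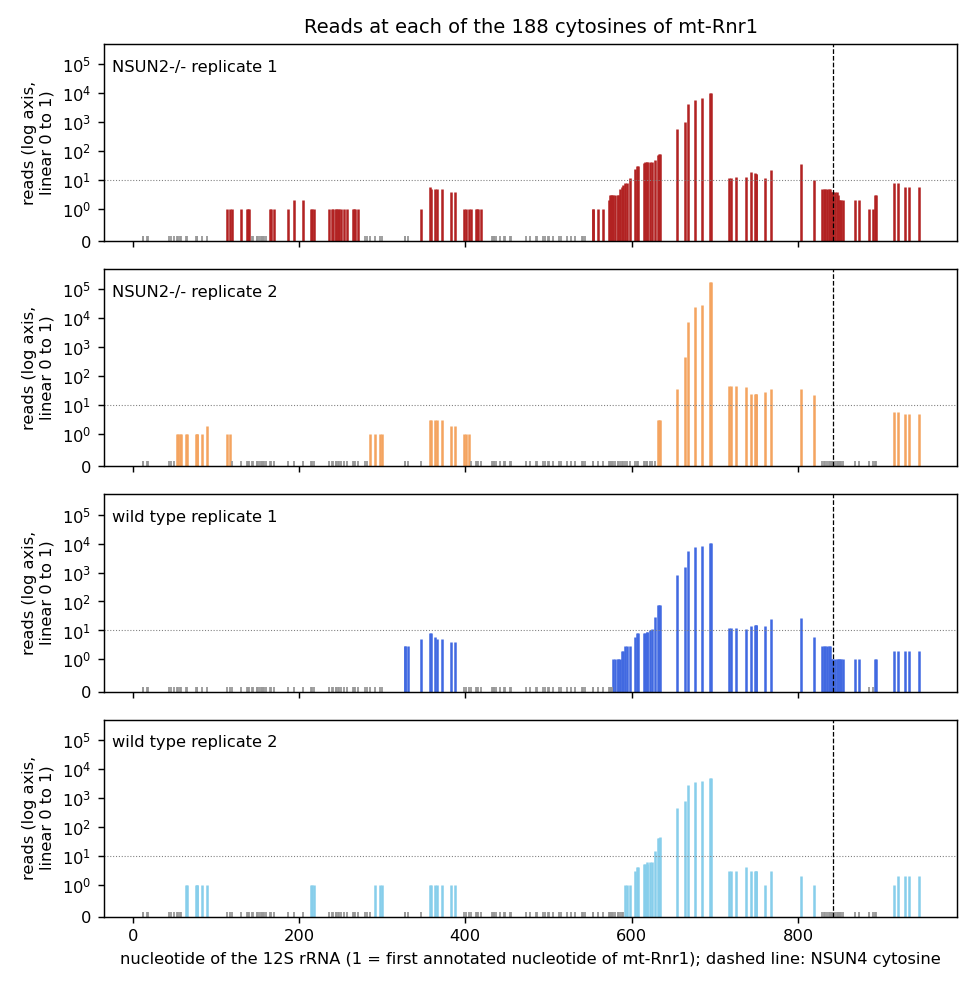
Reads at each of the 188 cytosines of the 12S rRNA, by nucleotide of the rRNA, in the NSUN2-/- libraries (upper panels) and the wild-type libraries (lower panels). The vertical axis is logarithmic above 1 and linear below it, grey ticks mark cytosines without a read, the dotted line marks 10 reads and the dashed line the NSUN4 cytosine. The tall bars at nucleotides 655 to 695 hold 97.3% to 99.9% of the 12S calls of each library, and only NSUN2-/- replicate 1 and wild type replicate 1 had reads at the dashed line.

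In each library the calls were spread more evenly over the 16S rRNA, the product of mt-Rnr2 and the RNA of the large subunit. The 2 deepest cytosines of mt-Rnr1, positions 763 and 764, took 51.3% and 85.2% of its calls in NSUN2-/- replicates 1 and 2, and 45.2% and 45.1% in wild type replicates 1 and 2. The 2 deepest of the 304 cytosines of mt-Rnr2 took 2.87% and 11.98% of its calls in the NSUN2-/- libraries and 3.40% and 6.72% in the wild-type libraries. The share was higher in mt-Rnr1 in 4 of 4 libraries, by 50.5 ± 15.7 points (SD, n = 4; two-sided exact paired permutation p = 0.125, the smallest that 4 pairs allow). Both pairs of cytosines were picked by depth summed over these same libraries, after the counts were seen. The p-value is therefore no independent support, and the shares are a description. The 12S rRNA also outnumbered the 16S rRNA in calls, through its deep stretch alone. Of all rRNA calls, 97.3% and 99.8% lay in mt-Rnr1 in the NSUN2-/- libraries, and 97.7% and 97.0% in the wild-type libraries. Outside the 7 deep cytosines mt-Rnr1 had fewer calls than mt-Rnr2 in each library. They were 1066 and 478 in NSUN2-/-, and 619 and 250 in wild type. The calls on mt-Rnr2 were 1115 and 810 in NSUN2-/-, and 1058 and 640 in wild type.

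The deep stretch ended sharply. At position 764 there were 10170 and 181175 reads in NSUN2-/- replicates 1 and 2, and 10198 and 4698 in wild type replicates 1 and 2. At the next cytosine, position 786, 22 nucleotides on, there were 12 and 45 reads in the NSUN2-/- libraries, and 12 and 3 in the wild-type libraries. If a read spans every cytosine between its ends, at least 99.9% and 99.98% of the reads at 764 in the NSUN2-/- libraries, and 99.9% and 99.9% in the wild-type libraries, ended before 786. Positions 763 and 764 lie side by side and were read to almost the same depth, so they share nearly all their reads and are not independent measurements.

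On the 5′ side the depth rose in steps, which differed between the NSUN2-/- libraries. Relative to the reads at 763, position 753 had 66.4% and 16.0% in NSUN2-/- replicates 1 and 2, and 83.3% and 81.7% in wild type replicates 1 and 2. Position 737 had 41.4% and 4.01% in the NSUN2-/- libraries, and 55.3% and 58.0% in the wild-type libraries. Position 733, 4 nucleotides before it, had 10.2% and 0.257% in the NSUN2-/- libraries, and 15.01% and 16.8% in the wild-type libraries. The reads at 737 were 4.04 and 15.6 times those at 733 in NSUN2-/-, and 3.68 and 3.45 times in wild type, so in every library many more reads began than ended between these cytosines.

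Reads that reached neither 753 nor 786, and so covered at most 32 nucleotides, made up at least 33.4% and 84.0% of the reads at 763 in NSUN2-/- replicates 1 and 2, and at least 16.6% and 18.3% in wild type replicates 1 and 2. Both NSUN2-/- libraries lay above both wild-type libraries, but they lay further from each other than replicate 1 lay from wild type. The means were 58.7% ± 35.7 in NSUN2-/- and 17.4% ± 1.18 in wild type (SD, n = 2 each; exact permutation p = 0.333, the smallest possible). Likewise, the share of 12S calls on positions 763 and 764 averaged 68.2% ± 24.0 in NSUN2-/- and 45.2% ± 0.111 in wild type (SD, n = 2 each; exact permutation p = 0.333). That difference of 23.1 points was 6.12 points without NSUN2-/- replicate 2. What set these read ends was not tested.

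**Figure D2:**
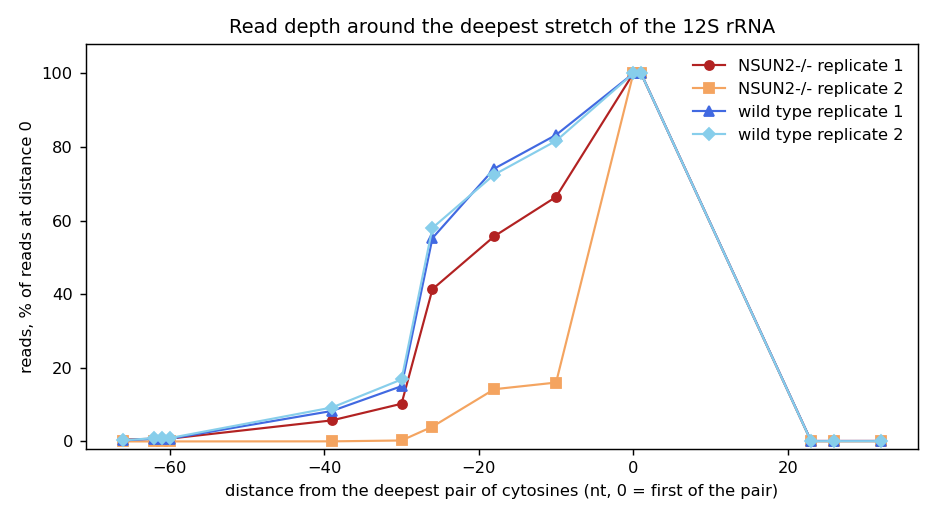
Reads at each cytosine as a percent of the reads at position 763, by distance from it in nucleotides, for the 2 NSUN2-/- and the 2 wild-type libraries. Lines join the cytosines of a library; the wild-type lines nearly coincide, NSUN2-/- replicate 1 lies under them with 66.4% at 10 nucleotides before the pair, and NSUN2-/- replicate 2 lies lowest with 16.0%.

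Levels at the deep cytosines were near the methylated share of mRNA cytosines, taken as background, apart from position 753 in NSUN2-/- replicate 2. Whether that share is all unconverted cytosine was not tested. Background was taken from the 175 sense cytosines of mRNAs that passed a coverage rule (in each genotype, 10 or more reads summed over its libraries), where 0.0793% and 0.0779% of calls were methylated in NSUN2-/- replicates 1 and 2, and 0.174% and 0.0728% in wild type replicates 1 and 2. The same rule kept 30 of the 188 cytosines of the 12S rRNA (16.0%): the 7 deep ones, 12 upstream of them at positions 676 to 703, and 11 downstream at positions 786 to 873. Over these 30 the summed level was 0.0533% (exact 95% interval 0.0330% to 0.0815%) and 0.0790% (0.0708% to 0.0879%) in NSUN2-/- replicates 1 and 2, and 0.100% (0.0730% to 0.134%) and 0.0721% (0.0404% to 0.119%) in wild type replicates 1 and 2. The intervals cover counting error only, because reads without molecular identifiers are not independent molecules.

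Set against the mRNAs of the same library, the 12S level minus the mRNA level was -0.0259 and 0.00114 points in NSUN2-/- replicates 1 and 2, and -0.0743 and -0.000734 points in wild type replicates 1 and 2. The mean difference was -0.0250 ± 0.0351 points (SD, n = 4; two-sided exact paired permutation p = 0.375), smaller than its spread over the libraries, and its sign turned without positions 763 and 764 (0.0355 points) and as a mean of site levels (0.0945 points). Without positions 763 and 764 the difference was 0.158 points in NSUN2-/- replicate 2 and -0.0441 to 0.0236 points in the other libraries. With no coverage minimum it was -0.160 points in wild type replicate 1 and -0.0152 to 0.00357 points in the other libraries. Between genotypes the summed level averaged 0.0662% ± 0.0182 in NSUN2-/- and 0.0861% ± 0.0198 in wild type (SD, n = 2 each), a difference of -0.0199 points (exact permutation p = 0.667). This sign also turned without positions 763 and 764, to 0.0464 points. In NSUN2-/- replicate 2 the level was then 0.235%, with 123 methylated reads at position 753. It was 0.0841% in NSUN2-/- replicate 1, and 0.130% and 0.0964% in wild type replicates 1 and 2. Without position 753, the deep cytosine of highest level, left out after its value was seen, the difference was -0.0350 points: 0.0429% and 0.0538% in NSUN2-/- replicates 1 and 2, both below the 0.0960% and 0.0707% in wild type replicates 1 and 2 (exact permutation p = 0.333, the smallest possible). As a mean of site levels it was -0.162 points (exact permutation p = 1), with 0.439% in wild type replicate 1, where position 685 had 1 methylated read of 8.

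No cytosine of the 12S rRNA was called lower or higher in NSUN2-/- among the 30. A call needed an adjusted p under 0.05 in edgeR's quasi-likelihood test and a difference of mean levels of at least 10 percentage points. Over all 482 cytosines of the table tested together, 0.622% were called lower and 0% higher, so with 30 members a count of 0 is near the background. The threshold of 10 points alone sets this count to 0 in any test, since the widest difference of the 30 was -6.25 points, at position 685. With no difference threshold edgeR called none of the 30 either. With all 4 libraries, none of the 30 had an unadjusted p under 0.05 in edgeR or in limma on log2 odds, and 1 did in Fisher's exact test on summed reads. At 9 of the 30 NSUN2-/- replicate 2 had no read, and the NSUN2-/- value there is that of replicate 1 alone.

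Position 753 (nucleotide 684) had, with all 4 libraries, the lowest p of the 30 in edgeR and in Fisher's exact test, but not in limma or with the replicate block. It kept a cytosine in 7 of 6757 and 123 of 28984 reads in NSUN2-/- replicates 1 and 2, and in 10 of 8493 and 3 of 3837 reads in wild type replicates 1 and 2. These are levels of 0.104% and 0.424% in NSUN2-/-, and of 0.118% and 0.0782% in wild type. Only NSUN2-/- replicate 2 was high, and replicate 1 lay between the wild-type libraries. The means were 0.264% ± 0.227 in NSUN2-/- and 0.0980% ± 0.0280 in wild type (SD, n = 2 each), with an edgeR unadjusted p of 0.0568 and an adjusted p of 1. Summing the reads of each genotype and applying Fisher's exact test, which takes no account of the spread between libraries, gave an adjusted p of 8.56e-05. With no difference threshold that test called 753 higher in NSUN2-/-, 1 of the 30, against 0.207% of all 482, which is position 753 itself. The other fits, in edgeR and limma, gave adjusted p-values of 0.413 to 1. Without NSUN2-/- replicate 2 the difference was 0.00563 points, against 0.166 points with it.

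In NSUN2-/- replicate 2 the level at 753 also stood above those of the cytosines beside it. Position 753 was singled out by its own values, and a read can cover several of these cytosines. The intervals are therefore a description and no independent support. Position 745, 8 nucleotides before, kept a cytosine in 16 of 25710 reads of that library (0.0622%, exact 95% interval 0.0356% to 0.101%). Position 763 did so in 104 of 181170 reads (0.0574%, interval 0.0469% to 0.0696%), whereas the interval at 753 ran from 0.353% to 0.506%. In the other 3 libraries the intervals at 745 and 753 overlapped, although 753 was the higher in each of the 4. In wild type replicate 2, for example, 745 had 1 methylated read of 3406 and 753 had 3 of 3837.

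At the other deep cytosines the levels stayed under 0.5% in every library. Position 737 kept a cytosine in 4 of 4205 and 8 of 7262 reads in NSUN2-/-, and in 12 of 5634 and 4 of 2726 reads in wild type. These are levels of 0.0951% and 0.110% in NSUN2-/-, and of 0.213% and 0.147% in wild type. It was the only one of the 7 where both NSUN2-/- libraries lay below both wild-type libraries. Of the 152 cytosines of the table with at least 10 reads in every library, 6.58% did so and 1.97% lay the other way, and none of the 7 lay the other way. The edgeR adjusted p at 737 was 1, and the difference in summed reads, -0.0867 points, had a Newcombe interval from -0.214 to 0.0206 points.

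The deepest pair had low levels in all 4 libraries. Position 763 kept a cytosine in 2 of 10169 and 104 of 181170 reads in NSUN2-/-, and in 5 of 10197 and 3 of 4698 reads in wild type. Position 764 did so in 3 of 10170 and 84 of 181175 reads in NSUN2-/-, and in 8 of 10198 and 1 of 4698 in wild type. The groups overlapped at both. The difference in summed reads was 0.00169 points at 763 (Newcombe interval -0.0514 to 0.0306) and -0.0150 points at 764 (-0.0700 to 0.0156), and both edgeR adjusted p-values were 1. Most summed NSUN2-/- reads came from replicate 2. The difference of library means was -0.0179 points at 763, of the opposite sign, and -0.0119 points at 764.

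The shallower end of the deep stretch was measured less well. Position 724 had 0 of 582 and 0 of 36 methylated reads in NSUN2-/-, which allows up to 0.515% and 8.33%, and 0 of 845 and 2 of 433 reads in wild type. Position 733 had 1 of 1041 and 1 of 465 methylated reads in NSUN2-/-, and 2 of 1531 and 1 of 791 in wild type. Neither position passed edgeR's test (adjusted p = 1 at both).

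**Figure D3:**
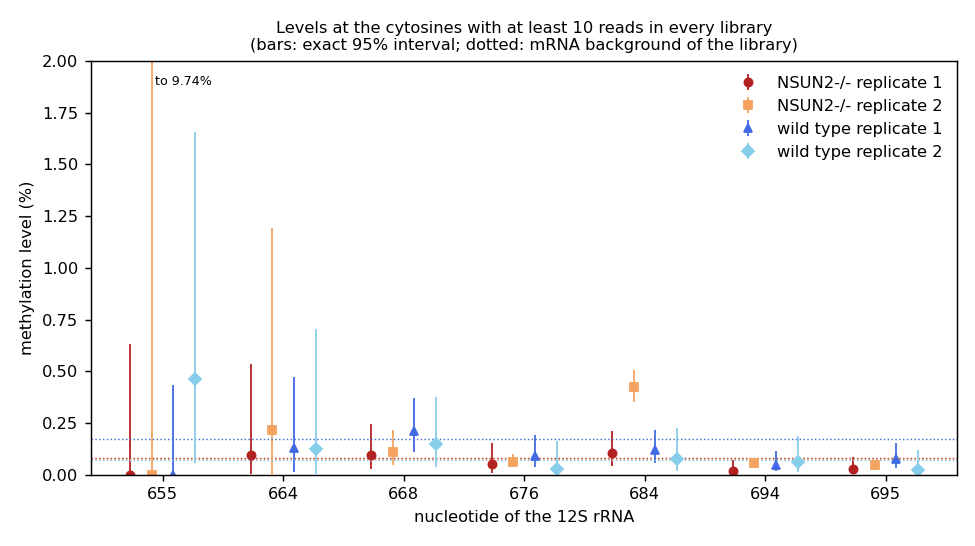
Methylation level in percent at the 7 cytosines with at least 10 reads in every library, by nucleotide of the 12S rRNA, for the NSUN2-/- libraries and the wild-type libraries. Bars are exact 95% intervals (that of NSUN2-/- replicate 2 at nucleotide 655 runs to 9.74%, beyond the axis) and dotted lines give the mRNA background of each library; NSUN2-/- replicate 2 at nucleotide 684, with 0.424%, is the one value whose interval lies above its own dotted line.

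Outside the deep stretch the tested cytosines held a pair of methylated calls. In the 12 upstream cytosines 0 of 587 and 0 of 9 calls were methylated in NSUN2-/- replicates 1 and 2, and 1 of 323 and 0 of 183 in the wild-type libraries. The single one was at position 685, where 0 of 41 reads in NSUN2-/- replicate 1, and 1 of 8 and 0 of 5 reads in wild type, kept a cytosine (edgeR adjusted p = 1), while NSUN2-/- replicate 2 had no read there. The neighbouring run of cytosines at 701, 702 and 703 had 76 to 78 and 3 reads in the NSUN2-/- libraries, and 74 and 42 to 43 in the wild-type libraries, with none methylated. In the 11 downstream cytosines 1 of 190 and 0 of 380 calls were methylated in NSUN2-/-, and 0 of 170 and 0 of 31 in wild type. That one was at position 873, with 1 of 37 and 0 of 37 reads in NSUN2-/-, and 0 of 26 and 0 of 2 reads in wild type.

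Over the 30 cytosines, 21 had no methylated read in any library. Limits for single sites were wide outside the deep stretch: a count of 0 allowed levels of up to 3.70% to 10% in summed NSUN2-/- reads, and up to 2.56% to 25% in summed wild-type reads. The exact 95% interval lay wholly above the mRNA share of the same library at 2 of the 30, position 753 in NSUN2-/- replicate 2 and position 685 in wild type replicate 1 (1 of 8 reads, 12.5%, interval 0.316% to 52.7%). Among all 482 tested cytosines this was so for 5.39% in at least 1 library, and among the 175 mRNA cytosines for 2.29%. No 12S cytosine met it in both libraries of a genotype, and at position 685 a single methylated read was enough to meet it.

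The NSUN4 cytosine, nucleotide 842, lay in the part that the libraries hardly covered. It was read 4 and 0 times in NSUN2-/- replicates 1 and 2, and 1 and 0 times in wild type replicates 1 and 2. In NSUN2-/- replicate 1 these reads came to 0.0393% of those at position 763, and in wild type replicate 1 to 0.00981%. Of the 4 reads of NSUN2-/- replicate 1, 3 kept a cytosine (75%, exact 95% interval 19.4% to 99.4%). The 1 read of wild type replicate 1 did not (interval 0% to 97.5%). The genotypes cannot be compared with 4 reads of 1 library against 1 read of another, and neither the presence of the mark in wild type nor its level in NSUN2-/- replicate 2 was measurable at this depth.

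Its neighbours show the calls made beside it at similarly low depth. The NSUN4 cytosine is the last of 3 successive cytosines, nucleotides 840, 841 and 842, and the base after it is a G, since the table lists a minus-strand cytosine there. Nucleotide 840, 2 before the NSUN4 cytosine, kept a cytosine in 1 of 4 reads of NSUN2-/- replicate 1 (25%, interval 0.631% to 80.6%) and in 0 of 1 read of wild type replicate 1. Nucleotide 841 between them kept it in 0 of 4 reads in NSUN2-/- replicate 1 and 0 of 1 in wild type replicate 1, and so did nucleotides 845 and 847. These 5 cytosines had 4 reads each in NSUN2-/- replicate 1, and 4 of their 20 calls were methylated, 3 of them at nucleotide 842.

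Within 25 nucleotides of the site the table lists 16 other cytosines, at nucleotides 819 to 854. Leaving out nucleotides 840 and 842, the 15 that remain had 0 methylated of 63 and 22 calls in NSUN2-/- replicates 1 and 2, and 0 of 32 and 0 of 1 in the wild-type libraries. A count of 0 allows up to 4.76% and 13.6% in the NSUN2-/- libraries, and up to 9.38% in wild type replicate 1. Upstream of the site, the 6 cytosines at nucleotides 829 to 838 had 5 and 0 reads in the NSUN2-/- libraries, and 3 and 0 in the wild-type libraries. Downstream, the 5 cytosines at nucleotides 848 to 854 had 2 to 3 and 0 reads in the NSUN2-/- libraries, and 1 and 0 in the wild-type libraries. The reads of NSUN2-/- replicate 2 and of wild type replicate 2 in this stretch were all at nucleotide 819, with 22 and 1, against 10 in NSUN2-/- replicate 1 and 6 in wild type replicate 1.

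**Figure D4:**
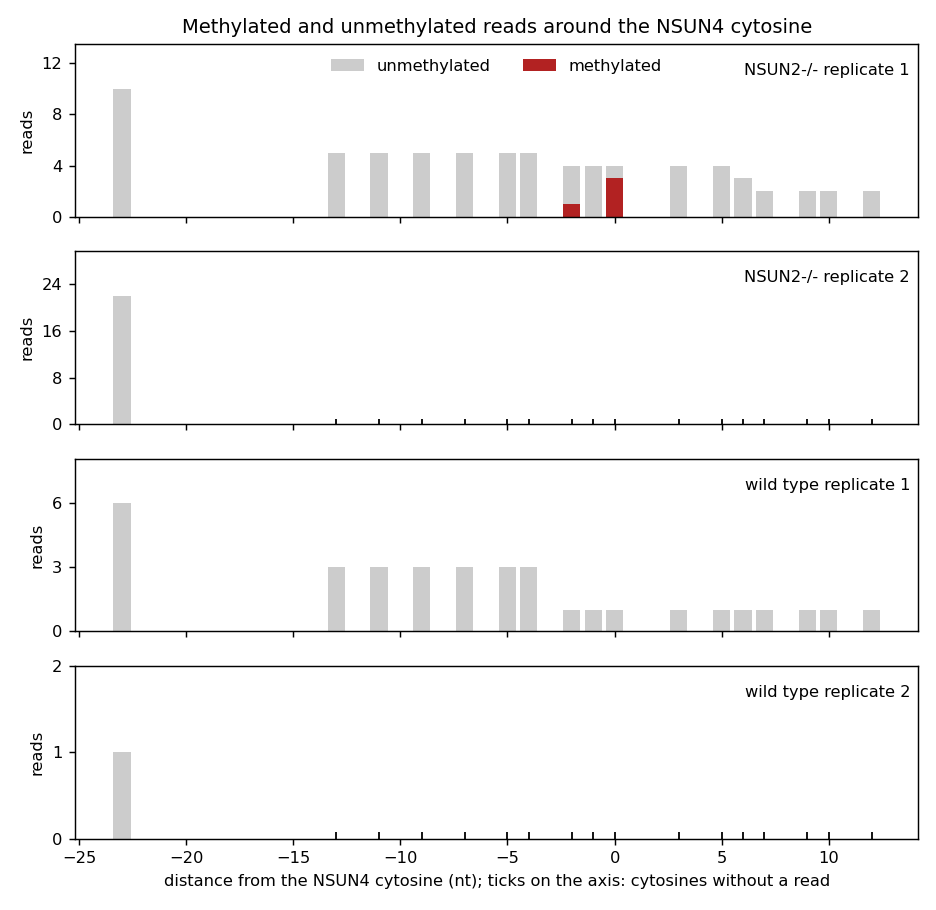
Methylated (red) and unmethylated (grey) reads at each cytosine within 25 nucleotides of the NSUN4 cytosine (distance 0), in the NSUN2-/- libraries (upper panels) and the wild-type libraries (lower panels), each panel with its own linear axis. The methylated calls are 3 of 4 reads at distance 0 and 1 of 4 at 2 nucleotides before it, both in NSUN2-/- replicate 1.

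Nucleotides 840 and 842 were also the only ones with a methylated read among the 158 cytosines of the 12S rRNA with under 10 reads in a genotype, 111 of which had reads. Without that pair, 0 of 281 and 0 of 89 calls were methylated at these cytosines in NSUN2-/- replicates 1 and 2, and 0 of 124 and 0 of 36 in the wild-type libraries. That allows summed levels of up to 1.07% and 3.37% in the NSUN2-/- libraries, and of up to 2.42% and 8.33% in the wild-type libraries.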

How the data were processed

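Per the labels' protocols, mitochondria were enriched from a lysate of mouse liver, ribosomal RNA was removed from their RNA, and small RNA libraries were made after repeated cycles of bisulfite conversion. Trim Galore, Bismark and the build GRCh38, a human one, are named per the submitters' processing notes, without versions. The deposited table holds counts of methylated and unmethylated reads per mtDNA position and library, per the file headers, with no normalization. Gene ends came from a RefSeq table (GRCm38.p6), and the table's own numbering was used.

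Coverage was the sum of both counts. A cytosine was tested where each genotype had 10 or more summed reads, using edgeR 4.0.16 under R 4.3.3 (quasi-likelihood fit and test, terms for library, methylation state and genotype by methylation state, untrended dispersion), adjusted by Benjamini-Hochberg over all 482 such positions, and the test was checked on simulated reads. Limma 3.58.1 used a prior count of 0.5. Intervals are exact (Clopper-Pearson, scipy 1.17.1) or Newcombe (statsmodels 0.14.6), and for 0 methylated reads 3 counts give the limit. Means over libraries were compared by exact permutation. Read-end shares and the comparison with mt-Rnr2 were added after the counts were seen.

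Sites named were the 10 deepest, those above background, the 5 with the lowest p, the first and last with reads, the NSUN4 cytosine with its neighbours within 25 nucleotides, and sparse sites with 2 or more methylated reads; position 873 was named after its value was seen. Members and rules were chosen with earlier results of these data known. As a check for duplicate libraries, depth per cytosine was compared within a genotype; chi-square was 45685 (37 degrees of freedom) in NSUN2-/- and 49.0 (29) in wild type, over calls that share reads. The wild-type libraries differed in the 12S share of their calls (50.1% and 45.9%) and were kept apart. Their depth profiles lay far closer together than those of the NSUN2-/- libraries. The small wild-type SDs may therefore be technical and need not reflect separate animals.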

Additional observations from a re-analysis of the deposited data

Results flagged for a closer look

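Both results are methylated reads at cytosines whose depth allowed no comparison of genotypes, since wild type had only 1 read at each, which was unmethylated. At nucleotide 842 of the 12S rRNA, the NSUN4 cytosine, 75% of the 4 reads of NSUN2-/- replicate 1 were methylated. At nucleotide 840, 25% of the 4 reads of the same library were methylated. Both positions had the same depth in each library, so the same few reads probably cover them, though counts per position cannot show it. No other library had more than 1 read there, and what these calls stem from was not tested.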

How the results depend on the processing

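The counts of 12S cytosines called lower and called higher in NSUN2-/- were 0 with all 4 libraries and in each alternative run: Fisher's exact test, limma, minimums of 5 and 30 reads per genotype, 10 reads in every library, difference thresholds of 5 points and none in edgeR, and leaving out each library. With the 10-point threshold this could not be otherwise, since no tested member differed by more than 6.25 points in any of these. With no difference threshold, chosen for these alternatives after seeing the data, the counts were again 0 except for 1 called higher by Fisher's exact test, position 753. The replicate block also gave 0 and 0, with and without the threshold; no label states that pairing, and the deviations of same-numbered libraries correlated at 0.256 over 152 cytosines. The difference in summed level between NSUN2-/- and wild type was 0.0464 points without the 2 deepest cytosines, -0.162 points as a mean of site levels, -0.0350 points without position 753, -0.0199 points with the replicate block and -0.0328 to -0.00664 points when single libraries were left out. The 12S level minus mRNA background turned to 0.0355 points without the 2 deepest cytosines and to 0.0945 points as a mean of site levels, was -0.0421 points with no coverage minimum, and ran from -0.0348 to -0.0118 points without single libraries. The share of calls on the 12S rRNA differed by -8.11 to 45.8 points without single libraries, the lowest without NSUN2-/- replicate 2, and by 18.8 points with the replicate block. The share on positions 763 and 764 differed by 6.12 to 40.03 points without single libraries, the lowest without NSUN2-/- replicate 2. The count of cytosines above background, 2, was 1 with a minimum of 30 reads, 1 with a 99% interval and 1 when any single library was left out, which was chosen after seeing the data. The cause of the values that moved or turned was not tested. Depth limits every statement outside positions 724 to 764.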
